A study of Mus musculus with 6 samples.

Results

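Assembled intergenic transcripts are the rows of the deposited lncRNA table that the table labels as intergenic and that carry an MSTRG identifier, the kind given to transcripts built from reads in place of a reference identifier. The table listed 578 of them among 24817 features, and they belonged to 506 loci, a locus being the set of transcripts that share 1 MSTRG number. Of these loci, 462 held 1 such transcript and 44 held 2 or more, and 11 also held assembled transcripts of another class. No count or FPKM value was used to pick these rows from the table, but transcripts built from reads are listed only where reads were found.

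The 6 libraries hold RNA of RAW264.7, a macrophage-like line from mice. The LPS_ES_PMMA group (3 libraries) and the LPS_PMMA group (3 libraries) both received lipopolysaccharide (LPS), a bacterial cell wall component, for 24 h, and were then moved to medium extracted from ES-PMMA or from plain PMMA bone cement. All libraries are thus LPS-stimulated, none is free of cement extract, and all come from 1 cell line. The labels do not say what ES stands for or whether replicate libraries stand for separate cultures, so the p-values measure only the spread between these libraries, which may be technical. The macrophage label could not be checked against mRNA of macrophage genes, because the table lists lncRNA features. In bulk RNA, less RNA per cell and fewer cells that make it cannot be told apart.

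Long intergenic RNAs are transcribed between protein-coding genes, and some are induced in macrophages by LPS, lincRNA-Cox2 being a known case. Transcript assembly joins reads into exons and calls a product intergenic when it overlaps no gene of the annotation it is compared with, so the label depends on the positions given to both. LPS acts on macrophages through Toll-like receptor 4 and NF-kB, which switch on cytokine, chemokine and acute-phase genes, and through interferon-driven factors.

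The listed counts of a library summed to 3261653, 1123551 and 3070657 in LPS_ES_PMMA 1 to 3 and to 3697638, 3249485 and 2877523 in LPS_PMMA 1 to 3. LPS_ES_PMMA 2 was the shallowest, and 472 of the 578 transcripts had a read in it, against 508 to 523 in each other library. LPS_ES_PMMA 1 to 3 had TMM scaling factors, which edgeR estimates from the bulk of the features, of 1.29, 1.82 and 0.983, against 0.559, 0.792 and 0.977 for LPS_PMMA 1 to 3. They differ between the groups, and fold changes below depend on them as stated beside the counts. Libraries of 1 group differed by far more than sampling noise, with a chi-square per degree of freedom of 31.5 to 170 over these transcripts.

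The transcripts were short, and their median level was above that of annotated intergenic lncRNAs. Their length ran from 201 to 21700 nt with a median of 505.5 nt, against medians of 586 nt for 1053 assembled antisense transcripts, 481.5 nt for 674 assembled intronic transcripts and 1125 nt for 10325 annotated intergenic lncRNAs. Their mean FPKM over the 6 libraries, a level per length, had a median of 8.42, against 8.24, 7.58 and 0.846 in those classes. The assembled classes were built from reads and the annotated class comes from a reference, so they were not chosen alike. How far this bears on the difference in level was not tested. A mean FPKM of at least 1 was found for 577 members, of at least 10 for 238, of at least 100 for 37 and of at least 1000 for 10. Reads were present in all 6 libraries for 392 of them and in 1 library only for 14. For every member the genomic span exceeded the listed length, so each holds at least 1 gap. This also held for every assembled antisense and intronic transcript, while span and length were equal for 68.2% of annotated intergenic lncRNAs. The part of the span outside the listed length had a median of 1791 bases, and it was under 50 bases for 31 members (5.36%), against 1.80% of antisense and 2.67% of intronic assembled transcripts.

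**Figure D1:**
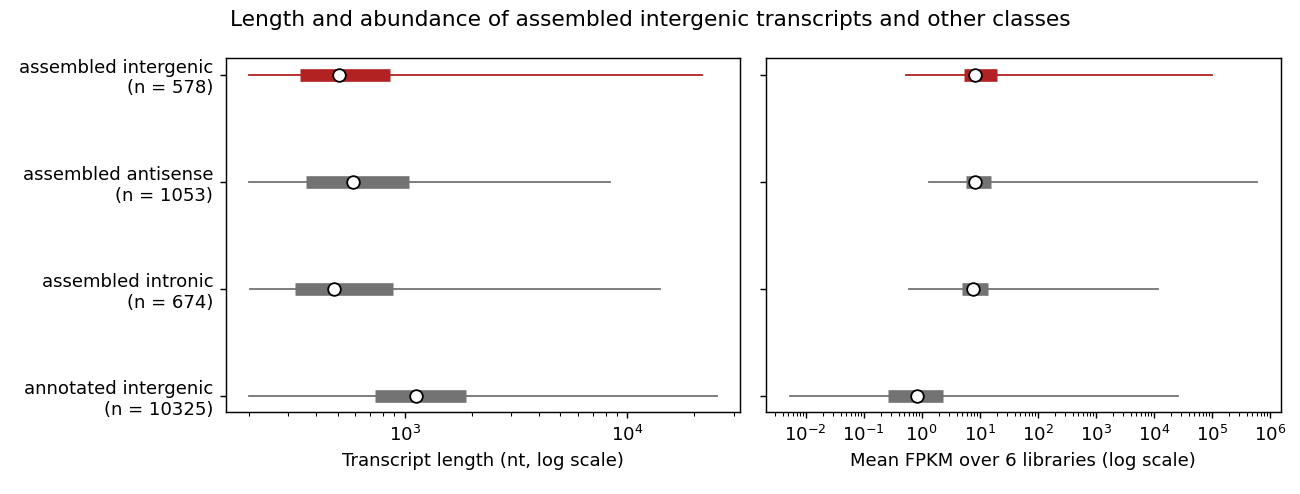
Transcript length in nt (left) and mean FPKM over the 6 libraries (right), both on log axes, for assembled intergenic transcripts and 3 other classes of the table. Circles mark medians, thick bars the span between the quartiles and thin lines the full range. Assembled intergenic transcripts had a median length of 505.5 nt and a median of 8.42 FPKM, and annotated intergenic lncRNAs 1125 nt and 0.846 FPKM.

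Where these transcripts lie bears on their label. The submitters' processing notes name mm10, and the listed positions were set against the genes of GENCODE M21, an annotation of the same assembly (GRCm38). Of the 576 members on sequences that this annotation names, 13 lay over a gene at the listed position, a low number that the intergenic label itself calls for, and 0 had an end within 2 bases of an annotated transcript end. The other 2 members are listed on MU069435.1, a scaffold name that the M21 annotation does not use. The ends of assembled loci met annotated transcript ends when a constant offset was applied along a stretch of chromosome. In all, 61 such stretches were found, with offsets from 14.245 to 956.395 kb in size and none at 0.

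For 253 members an offset could be read from the ends of other loci in the same stretch, with the member's own locus left out. Loci of another number listed at nearly the same bases were not left out, such as MSTRG.17530 for MSTRG.17528 and MSTRG.17430 for MSTRG.17429. The reading is thus not fully separate from a member's own ends, and how far this matters was not tested. With that offset, 234 of the 253 (92.5%) lay over an annotated gene and 211 (83.4%) over a protein-coding gene. Genes of all types in this annotation cover 44.9% of the length of the chromosomes. That is a share of bases, and how often spans of this size would lie over a gene at random was not tested. At the listed positions, where the label was given, 4 lay over a gene. An end fell within 2 bases of an annotated transcript end for 67 of them, and both ends did for 33. In the stretches that rest on at least 6 loci, a limit chosen after seeing the data, 169 of 173 members (97.7%) lay over a gene and 154 over a protein-coding gene. The gene column of the table names a gene for 43 members, at most 991 bases from the listed position. Of the 19 of these for which an offset was read, 0 had the named gene over them at the offset. The processing notes name mm10, but of the 61 stretches in which assembled ends met M21 ends, 0 had an offset of 0. Listed positions in those stretches are thus not mm10 positions, although mm10 is the only build named. Which build they follow was not tested, so positions are printed as listed and no moved position is given. A gene is named for a member below when the member lies over it at the offset and either the stretch rests on at least 6 loci or an end of the member meets an annotated end. This held for 187 members, of which 183 lay over 1 or more of 221 genes and 164 over a protein-coding gene. No source used here gives the strand of the assembled transcripts or says whether counting used strand, so reads of such a member and of the gene it lies over cannot be told apart.

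**Figure D2:**
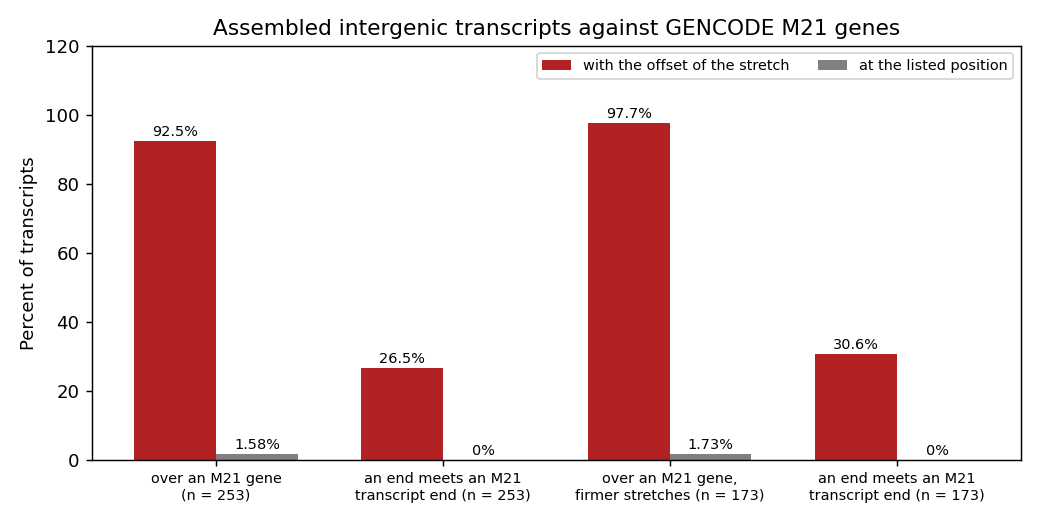
Percent of assembled intergenic transcripts that lie over a GENCODE M21 gene, or have an end within 2 bases of an M21 transcript end, with the offset of their stretch (red) and at the listed position (grey). The left pairs of bars show all 253 members with an offset and the right pairs the 173 in stretches of at least 6 loci. At the offset 92.5% and 97.7% lay over a gene, and at the listed position, where the intergenic label keeps such overlap low, 1.58% and 1.73% did.

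The most abundant member was MSTRG.17528.3, listed on chromosome 14 from 51044906 to 51045224 with a length of 298 nt. Both of its ends met those of Rpph1 at the offset. Rpph1 is the RNA component of RNase P, the enzyme that trims the leader from precursor tRNAs, and its annotated transcript is 319 nt long (GRCm38, chr14:50807449-50807767, minus strand). The first 300 bases of that reference transcript (chr14:50807468-50807767, minus strand), from GENCODE M21, are shown because 1 locus with these ends held more reads than any other here. No base is in capitals, since the 298 nt that the member keeps of its span are not known.

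Rpph1: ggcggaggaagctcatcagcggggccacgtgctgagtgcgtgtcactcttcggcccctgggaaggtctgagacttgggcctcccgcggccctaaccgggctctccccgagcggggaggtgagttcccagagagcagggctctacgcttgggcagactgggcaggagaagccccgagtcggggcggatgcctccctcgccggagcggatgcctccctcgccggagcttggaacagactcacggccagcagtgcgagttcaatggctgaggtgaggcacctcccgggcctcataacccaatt

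MSTRG.17528.3 had 28872, 21306 and 46592 CPM (counts scaled to a common library size with TMM) in LPS_ES_PMMA 1 to 3, against 96620.5, 59069 and 37126 CPM in LPS_PMMA 1 to 3. The groups overlapped, and the log2 fold change of -0.99 (SE 0.54) did not pass (edgeR adjusted p = 0.327). The locus MSTRG.17528 took 46.1%, 36.9% and 51.8% of all reads of the members in LPS_ES_PMMA 1 to 3, against 63.2%, 60.0% and 49.2% in LPS_PMMA 1 to 3. MSTRG.17530.1 (304 nt), of another locus listed at nearly the same bases, shared an end with Rpph1. It had 910.2, 524 and 1276 CPM in LPS_ES_PMMA and 3008, 1474 and 411 CPM in LPS_PMMA, again with overlap (edgeR adjusted p = 0.4999). It held 66.0% to 71.5% of its locus in 5 libraries and 21.3% in LPS_PMMA 3, where MSTRG.17530.2 held 69.8%. Summed over the locus MSTRG.17530 there were 1305, 794 and 1864 CPM in LPS_ES_PMMA, against 4194, 2137 and 1927 CPM in LPS_PMMA, without overlap, and the log2 fold change of -1.06 (SE 0.41) did not pass (edgeR adjusted p = 0.174). Reads shared by these loci may have been divided between them in counting.

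Together the members held 7.90%, 10.2% and 8.69% of the listed counts in LPS_ES_PMMA 1 to 3, against 8.41%, 7.70% and 7.27% in LPS_PMMA 1 to 3. The means were 8.92% ± 1.15 in LPS_ES_PMMA and 7.79% ± 0.577 in LPS_PMMA (SD, n = 3 each), the groups overlapped, and an exact two-sided permutation test gave p = 0.2, where 3 libraries against 3 cannot go below 0.1. The difference of 1.126 percentage points was 0.506 without LPS_ES_PMMA 2. Set against the library totals implied by the FPKM values, the share was 5.51% in LPS_ES_PMMA and 6.12% in LPS_PMMA, the opposite direction (exact permutation p = 0.5). Without the locus MSTRG.17528 the members held 4.26%, 6.41% and 4.19% in LPS_ES_PMMA and 3.10%, 3.08% and 3.69% in LPS_PMMA. All 3 LPS_ES_PMMA libraries were then above all 3 LPS_PMMA libraries, by 1.665 percentage points on average, with the smallest p this design allows (exact permutation p = 0.1), and by 0.934 points without LPS_ES_PMMA 2. The same order held against the implied totals, at 2.99% in LPS_ES_PMMA and 2.57% in LPS_PMMA. Against the TMM-scaled totals behind the CPM values it did not, with 3.37%, 3.65% and 4.33% in LPS_ES_PMMA and 5.63%, 3.93% and 3.84% in LPS_PMMA, which overlap and average lower in LPS_ES_PMMA (exact permutation p = 0.4). With MSTRG.17528 included, the TMM-scaled means were 7.01% in LPS_ES_PMMA and 10.9% in LPS_PMMA (exact permutation p = 0.2). The direction of the summed share thus depends on the total it is set against.

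Other abundant members did not pass the test either. MSTRG.59446.1, listed at the start of MU069435.1, had 494, 13484 and 6183 CPM in LPS_ES_PMMA and 2336, 1018.5 and 989.6 CPM in LPS_PMMA (log2 fold change 2.21, SE 0.97, edgeR adjusted p = 0.234). It was high in 2 of 3 LPS_ES_PMMA libraries and below all LPS_PMMA libraries in the remaining one. MSTRG.17429.3 met both ends of a transcript of Lgals3, which encodes galectin-3, a sugar-binding protein abundant in macrophages. It averaged 617 ± 233 CPM in LPS_ES_PMMA and 1163 ± 74.4 CPM in LPS_PMMA (SD, n = 3 each), without overlap, but did not pass (edgeR adjusted p = 0.153). MSTRG.985.2 met both ends of a transcript of Eef1b2, a translation elongation factor subunit, and had 382, 557 and 572 CPM in LPS_ES_PMMA, against 757, 835 and 470.1 CPM in LPS_PMMA (edgeR adjusted p = 0.447). The other 5 of the 10 most abundant, with 1 taken per locus, MSTRG.11555.3, MSTRG.25364.11, MSTRG.55662.5, MSTRG.53159.2 and MSTRG.45589.16, had no gene named by the rule above, and their edgeR adjusted p-values lay between 0.380 and 0.950.

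The comparison of the cement extracts was fitted over the whole table with edgeR's quasi-likelihood test, with p-values adjusted by Benjamini and Hochberg over all 8873 features that passed the count filter and a threshold of 0.05. Of the 578 members, 397 passed the filter and were tested, and 181 did not. The median of the mean FPKM was 12.5 in those tested and 4.13 in those not tested. Of those tested, 28 passed (7.05%), against 4.76% of all features tested. In LPS_ES_PMMA 11 members rose (2.77%, against 2.18% of all) and 17 fell (4.28%, against 2.58% of all). The groups did not overlap, with LPS_ES_PMMA higher, for 48 members (12.1%, against 16.2% of all), and with LPS_ES_PMMA lower for 101 (25.4%, against 14.6% of all). The median log2 fold change was -0.43 over the members tested and 0.03 over all features tested. Without LPS_ES_PMMA 3 the members' median was -0.67 and without LPS_PMMA 1 it was -0.29, with 0.03 and 0.04 over all features.

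These counts move with the scaling. By column totals alone 15 members rose and 5 fell, and by the library totals implied by FPKM 11 rose and 9 fell. Those scalings also moved the median of all features, to 0.82 and 0.46 on the log2 scale. The members' median minus that of all features was -0.48 and -0.47 on these scales, against -0.46 with TMM. Leaving out any 1 library left 1 to 2 members that rose and 2 to 5 that fell, and 17 of the 28 calls were lost in each of the 6 such fits. The range of edgeR adjusted p over those 6 fits is given beside the members below.

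**Figure D3:**
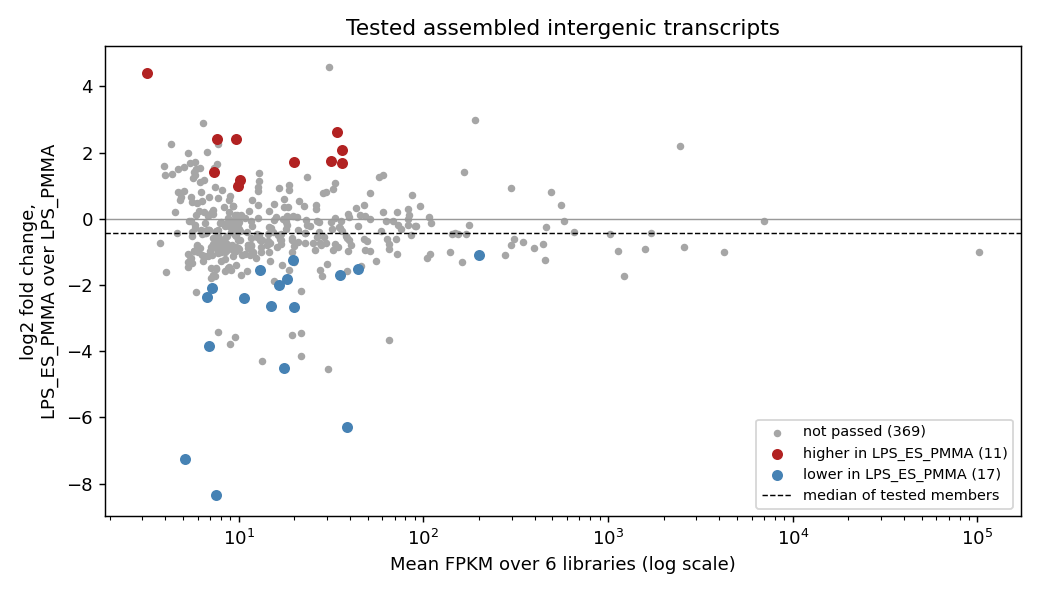
Log2 fold change (LPS_ES_PMMA over LPS_PMMA) against the mean FPKM over 6 libraries, on a log axis, for the 397 assembled intergenic transcripts tested. Red points rose and blue points fell in LPS_ES_PMMA at an edgeR adjusted p under 0.05, grey points did not pass, and the dashed line marks the median of -0.43. The 10 members with a mean FPKM of at least 1000 are all grey.

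Of the 17 members that fell, 5 had a named gene, and these were Saa3, Lgals3, Mpeg1, Itgav and Cyth2. MSTRG.49961.1 (chromosome 7, listed at 46361452 to 46365112, 513 nt) lay over Saa3, an acute-phase protein gene that LPS induces in macrophages. It had 0 counts in all 3 LPS_ES_PMMA libraries, against 64, 18 and 18 counts in LPS_PMMA 1 to 3. It was at least 41.1-fold lower in LPS_ES_PMMA, taking 3 counts over the group as the limit that a count of 0 allows (edgeR adjusted p = 0.0376). That bound was 20.5-fold without LPS_PMMA 1 and between 22.4- and 54.1-fold with each other library left out, with edgeR adjusted p-values from 0.0516 to 0.122. Its locus holds no other member, so the fit by locus used the same counts and is not separate evidence. In that fit it passed (edgeR adjusted p = 0.0271), and so it did without LPS_PMMA 1 (0.0350) or LPS_PMMA 3 (0.0441).

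Csf3 encodes granulocyte colony-stimulating factor, a cytokine that NF-kB induces. Its 3 members, all of locus MSTRG.10144 (chromosome 11, listed at 98592070 to 98594457), shared an end with Csf3. The locus had 59.2, 23.8 and 90.9 CPM in LPS_ES_PMMA 1 to 3, against 482, 387 and 288 CPM in LPS_PMMA 1 to 3. The groups did not overlap, and the locus fell by 2.73 on the log2 scale (SE 0.47, edgeR adjusted p = 0.0160). The call was lost without LPS_ES_PMMA 1, LPS_PMMA 1 or LPS_PMMA 2, the largest edgeR adjusted p being 0.0930. None of its transcripts passed alone. MSTRG.10144.1 had 240, 22 and 7 counts in LPS_ES_PMMA and 976, 982 and 163 counts in LPS_PMMA (edgeR adjusted p = 0.120), MSTRG.10144.2 had reads in 3 libraries only, and MSTRG.10144.3 was not tested.

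MSTRG.17430.3 (chromosome 14, 1010 nt) shared an end with Lgals3. It had 3.16, 0 and 4.04 CPM in LPS_ES_PMMA 1 to 3, against 79.1, 52.3 and 46.6 CPM in LPS_PMMA 1 to 3, and fell by 4.50 on the log2 scale (SE 0.72, edgeR adjusted p = 0.0185). The call held only without LPS_ES_PMMA 2, at 0.0145 to 0.104 over the 6 fits. The sum over its locus MSTRG.17430 had 85.1, 66.8 and 129 CPM in LPS_ES_PMMA, against 199.6, 157 and 81.0 CPM in LPS_PMMA, overlapped and did not pass (edgeR adjusted p = 0.361). MSTRG.17430.3 is the only called transcript whose locus was not called.

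MSTRG.28856.1 (chromosome 19, 3963 nt) lay over Mpeg1, which encodes perforin-2, a pore-forming protein of phagocytes. It had 60.2, 31.9 and 61.7 CPM in LPS_ES_PMMA, against 227, 179.9 and 135 CPM in LPS_PMMA, and fell by 1.81 on the log2 scale (SE 0.35, edgeR adjusted p = 0.0307, 0.0641 to 0.111 when 1 library was left out). MSTRG.31885.2 (chromosome 2, 592 nt) met both ends of a transcript of Itgav, the integrin alpha V gene. It had 115, 109 and 122 CPM in LPS_ES_PMMA, against 213, 279 and 239.7 CPM in LPS_PMMA, and fell by 1.08 (SE 0.23, edgeR adjusted p = 0.0416, 0.0814 to 0.179 when 1 library was left out). MSTRG.49995.1 (chromosome 7, 390 nt) lay over Cyth2, which encodes an exchange factor for ARF GTPases, while the gene column of the table names Ftl1. It was low in both groups, with 4, 4 and 4 counts in LPS_ES_PMMA and 17, 24 and 11 counts in LPS_PMMA (log2 fold change -2.36, SE 0.51, edgeR adjusted p = 0.0446, 0.0547 to 0.190 when 1 library was left out). MSTRG.28856.1, MSTRG.31885.2 and MSTRG.49995.1 each passed under 3 of 15 alternative settings, which include other scalings and the fits without 1 library.

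Over protein-coding genes, 117 of the members named by the rule above were tested, and 0 rose and 5 fell. Of all members tested 2.77% rose and 4.28% fell, and of all features 2.18% and 2.58%. The median log2 fold change of the 117 was -0.66, against -0.43 over all members tested and 0.03 over all features. At an unadjusted edgeR p under 0.05 there were 41 of the 117. Of these, 9 were higher and 32 lower in LPS_ES_PMMA, against 11.2% and 10.7% of all features. By DESeq2 1 rose and 9 fell at an adjusted p under 0.05, against 2.38% and 3.45% of all. By column totals 2 rose and 2 fell and the median turned to 0.15, against 0.82 over all features on that scale. By the implied totals 0 rose and 2 fell, with a median of -0.20 against 0.46 over all features. Without 1 library 0 rose and 0 or 1 fell, whichever library it was, and the median ran from -0.91 without LPS_ES_PMMA 3 to -0.27 without LPS_PMMA 1.

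Gene lists on macrophage activation were looked up among the 187 members with a named gene. Of 28 LPS and NF-kB response genes, 3 had members over them, Ccl4, Csf3 and Saa3, with 5 members in all. Of the 4 tested, which include 2 transcripts of the Csf3 locus, 0 rose and 1 fell, against 2.18% and 2.58% of all features. All 4 had negative log2 fold changes, as did 48.2% of all features, with a median of -3.56, the same with MSTRG.49961.1 at its bound, against 0.03 over all features. These 5 members share 3 loci, and MSTRG.10144.2 turned to a log2 fold change of 7.24 without LPS_PMMA 3, which held most of its reads. MSTRG.9473.1 over Ccl4, a chemokine gene, had 36.9, 38.5 and 52.6 CPM in LPS_ES_PMMA and 115, 94.8 and 58.5 CPM in LPS_PMMA. The groups did not overlap, and the log2 fold change of -1.07 (SE 0.32) did not pass (edgeR adjusted p = 0.109). Of 43 interferon and antiviral genes, 1 had a member, MSTRG.17787.1 over Irf9, the DNA-binding subunit of an interferon-activated factor, with 0, 5 and 0 counts in LPS_ES_PMMA and 12, 5 and 0 in LPS_PMMA, too few to test. None of the 187 lay over any of 15 alternative activation genes or 12 macrophage identity genes.

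The other 12 members that fell had no gene named by the rule. MSTRG.11688.1 and MSTRG.11690.1 lie beside each other on chromosome 12, between 26495181 and 26528110 as listed. MSTRG.11688.1 had 0 counts in LPS_ES_PMMA, against 20, 19 and 11 counts in LPS_PMMA, at least 20.6-fold lower (edgeR adjusted p = 0.0206). Its call held only without LPS_PMMA 3, at 0.0483 to 0.0907 over the 6 fits, and its bound was 11.2-fold without LPS_ES_PMMA 1. MSTRG.11690.1 had 0.486, 1.52 and 4.04 CPM in LPS_ES_PMMA, against 31.0, 31.9 and 23.1 CPM in LPS_PMMA, and fell by 3.84 on the log2 scale (SE 0.60, edgeR adjusted p = 0.0173). Its call held only without LPS_ES_PMMA 3, at 0.0296 to 0.0745 over the 6 fits. Its locus holds no other member, and in the fit by locus the same counts lost the call only without LPS_ES_PMMA 2, at an edgeR adjusted p of 0.0558.

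MSTRG.40521.1 on chromosome 4 had 2, 1 and 4 counts in LPS_ES_PMMA, against 273, 127 and 25 counts in LPS_PMMA. It fell by 6.28 on the log2 scale (SE 1.09, edgeR adjusted p = 0.0227), and the LPS_PMMA libraries were far apart. Without LPS_ES_PMMA 1, 2 or 3 or LPS_PMMA 2 it did not pass, with edgeR adjusted p-values up to 0.120. MSTRG.19221.1 on chromosome 15, listed at 25270133 to 25272088, had the smallest adjusted p of the members that fell. It had 7.77, 6.08 and 7.07 CPM in LPS_ES_PMMA and 36.9, 36.2 and 37.5 CPM in LPS_PMMA. It fell by 2.38 on the log2 scale (SE 0.25, edgeR adjusted p = 0.00529) and passed whichever of the 6 libraries was left out, with 0.0429 as the largest edgeR adjusted p. It did not pass by column totals (0.0614) or with the replicate block (0.0521).

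A pair of the members that fell lies on unplaced scaffolds. MSTRG.59327.2 on GL456211.1 averaged 3.63 ± 0.932 CPM in LPS_ES_PMMA and 22.6 ± 6.45 CPM in LPS_PMMA (SD, n = 3 each; edgeR adjusted p = 0.0120). MSTRG.59437.4 on GL456221.1 averaged 19.4 ± 4.88 CPM in LPS_ES_PMMA and 77.6 ± 8.20 CPM in LPS_PMMA (SD, n = 3 each; edgeR adjusted p = 0.0139). Both calls were lost without LPS_ES_PMMA 1, LPS_ES_PMMA 3 or LPS_PMMA 2, and that of MSTRG.59437.4 also without LPS_PMMA 3, with edgeR adjusted p-values up to 0.0769. The remaining 6, MSTRG.34278.1, MSTRG.50413.1, MSTRG.41779.5, MSTRG.26077.3, MSTRG.22931.5 and MSTRG.40277.3, had log2 fold changes from -2.67 to -1.24 with no overlap of the groups, and MSTRG.26077.3 alone passed in any fit without 1 library, at 0.0498 without LPS_PMMA 1 (edgeR adjusted p). These members passed under 3 to 7 of the 15 alternative settings.

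Among the 11 members that rose, 1 had a named gene. MSTRG.19832.2 (chromosome 15, 8494 nt) shared an end with Pvt1, a long non-coding gene next to Myc. It had 131, 134 and 95.3 CPM in LPS_ES_PMMA 1 to 3, against 46.2, 34.2 and 54.2 CPM in LPS_PMMA 1 to 3. The groups did not overlap, and it rose by 1.42 on the log2 scale (SE 0.28, edgeR adjusted p = 0.0343, 0.0853 to 0.159 when 1 library was left out).

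MSTRG.26055.2 (chromosome 17, listed at 75742921 to 75801239, 677 nt) had the smallest adjusted p of the members that rose. It had 45.2, 57.2 and 51.9 CPM in LPS_ES_PMMA, against 6.39, 9.45 and 9.03 CPM in LPS_PMMA, and rose by 2.62 on the log2 scale (SE 0.28, edgeR adjusted p = 0.00542). It passed whichever library was left out, with 0.0464 as the largest edgeR adjusted p, and under each of the 15 alternatives tried. Its locus, with 3 members, had 57.5, 67.9 and 65.0 CPM in LPS_ES_PMMA and 8.34, 10.6 and 13.7 CPM in LPS_PMMA (edgeR adjusted p = 0.00380). The leading transcript held 65.8% to 88.9% of that locus in every library.

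MSTRG.16502, a locus of 2 members on chromosome 14, had 126, 93.7 and 126 CPM in LPS_ES_PMMA, against 10.3, 20.4 and 17.3 CPM in LPS_PMMA. It rose by 2.84 on the log2 scale (SE 0.32, edgeR adjusted p = 0.00395) and passed under all 15 alternatives. Its transcripts were less even, since MSTRG.16502.4 held 25.9% of the locus in LPS_ES_PMMA 1 and 91.7% to 100% in the other 5 libraries. That transcript alone passed at an edgeR adjusted p of 0.0423, and without 1 library only when LPS_ES_PMMA 1 was the one left out (0.0459 to 0.144). MSTRG.32420, with 2 members on chromosome 2, had 228, 206 and 243 CPM in LPS_ES_PMMA and 73.1, 73.8 and 68.8 CPM in LPS_PMMA, and rose by 1.65 (SE 0.21, edgeR adjusted p = 0.00651). The locus failed the threshold only without LPS_PMMA 2, at an edgeR adjusted p of 0.0537. Its called transcript, MSTRG.32420.2, had 189, 135 and 167 CPM in LPS_ES_PMMA and 45.2, 48.0 and 53.1 CPM in LPS_PMMA (edgeR adjusted p = 0.0143). That call held only without LPS_ES_PMMA 2, at 0.0250 to 0.0825 over the 6 fits.

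MSTRG.51917.1 had the largest log2 fold change among the members that rose, 4.40 (SE 0.98, edgeR adjusted p = 0.0470, 0.0979 to 0.191 when 1 library was left out), on 12, 4 and 19 counts in LPS_ES_PMMA and 1, 0 and 0 counts in LPS_PMMA. MSTRG.48143.1 on chromosome 6 had 7.04, 10.1 and 9.77 CPM in LPS_ES_PMMA and 1.47, 1.57 and 1.81 CPM in LPS_PMMA (edgeR adjusted p = 0.0183, 0.0616 to 0.0897 when 1 library was left out). It and MSTRG.41548.1 had an offset and lay over no annotated gene. The other 5 that rose, MSTRG.4037.5, MSTRG.52979.47, MSTRG.3973.2, MSTRG.4392.1 and MSTRG.41548.1, had log2 fold changes of 1.01 to 2.08, and each lost its call whichever library was left out. These members passed under 2 to 7 of the 15 alternative settings.

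**Figure D4:**
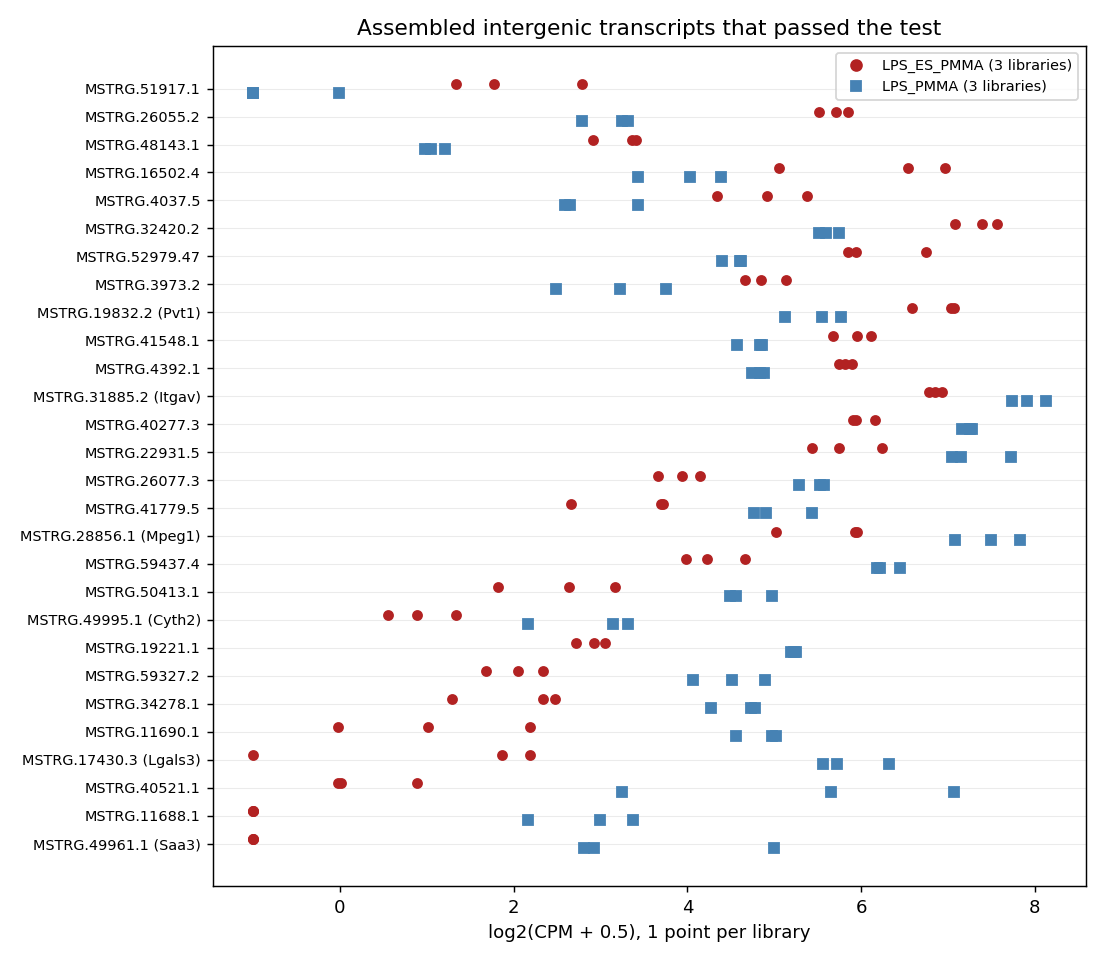
CPM of the 28 assembled intergenic transcripts that passed the test, as log2(CPM + 0.5) with 1 point per library, ordered by log2 fold change. Red circles are LPS_ES_PMMA and blue squares LPS_PMMA libraries, a gene in brackets is one the transcript lies over at the offset, and points at -1 stand for 0 CPM. The circles lie to the right of the squares in the upper 11 rows and to the left in the lower 17, with no overlap.

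Summed by locus, 353 of 506 loci were tested and 33 passed (9.35%, against 5.35% of all features tested). In LPS_ES_PMMA 14 loci rose (3.97%, against 2.43% of all) and 19 fell (5.38%, against 2.91% of all). The groups did not overlap for 44 loci with LPS_ES_PMMA higher (12.5%, against 16.4% of all) and for 96 with LPS_ES_PMMA lower (27.2%, against 14.6% of all). Of the loci, 27 were called both in the fit by locus and through a transcript, and 6 only in the fit by locus. A locus with 1 member has the same counts in both fits, so its call by locus is not separate evidence. By column totals 21 loci rose and 5 fell, and by the implied totals 13 rose and 9 fell. Calls in all 6 fits without 1 library were kept by 3 loci, MSTRG.26055, MSTRG.16502 and MSTRG.19221.

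The 6 loci called only in the fit by locus were MSTRG.10144 over Csf3, described above, and 5 others. MSTRG.1106 lay over D630023F18Rik and Gm28845 and had 17.5, 19.7 and 19.5 CPM in LPS_ES_PMMA, against 0, 5.10 and 2.16 CPM in LPS_PMMA. It rose by 2.89 on the log2 scale (SE 0.68, edgeR adjusted p = 0.0478, up to 0.160 over the fits without 1 library), with the call kept only without LPS_PMMA 1. MSTRG.48111 lay over Ptms, the parathymosin gene, and had 428, 443 and 523 CPM in LPS_ES_PMMA, against 237, 231 and 262 CPM in LPS_PMMA. It rose by 0.93 (SE 0.21, edgeR adjusted p = 0.0430, 0.0650 to 0.227 when 1 library was left out). MSTRG.52899 rose by 1.02, and MSTRG.52150 and MSTRG.60066 had log2 fold changes of -1.69 and -1.50 (edgeR adjusted p from 0.0405 to 0.0498). All 3 of these calls were lost whichever library was left out. MSTRG.1106, MSTRG.48111, MSTRG.52899 and MSTRG.60066 hold 1 member each, with the same counts in both fits. When tested as transcripts these members had edgeR adjusted p-values of 0.0628, 0.0646, 0.0611 and 0.0613, in that order.

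How reads were divided among transcripts of 1 locus varied between libraries, at the Csf3 locus also between libraries of the same group. Of the loci with 2 or more members, 36 had at least 20 counts in every library. Over all 6 libraries of both groups, the highest and lowest share held by the leading transcript differed by a median of 35.3 percentage points. The difference was over 50 points in 14 of the 36. These values do not separate spread within a group from differences between the groups. At the Csf3 locus MSTRG.10144.1 held 98.4%, 46.8% and 2.59% of the reads in LPS_ES_PMMA 1 to 3 and 99.4%, 99.5% and 20.4% in LPS_PMMA 1 to 3. The 3 transcripts of that locus share 1 listed end. At MU069435.1, MSTRG.59446.1 held 17.2%, 99.2% and 77.2% in LPS_ES_PMMA and 39.7%, 27.0% and 31.9% in LPS_PMMA. The locus sum was 2875, 13587 and 8002 CPM in LPS_ES_PMMA and 5869, 3761 and 3091 CPM in LPS_PMMA, and did not pass (edgeR adjusted p = 0.333).

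**Figure D5:**
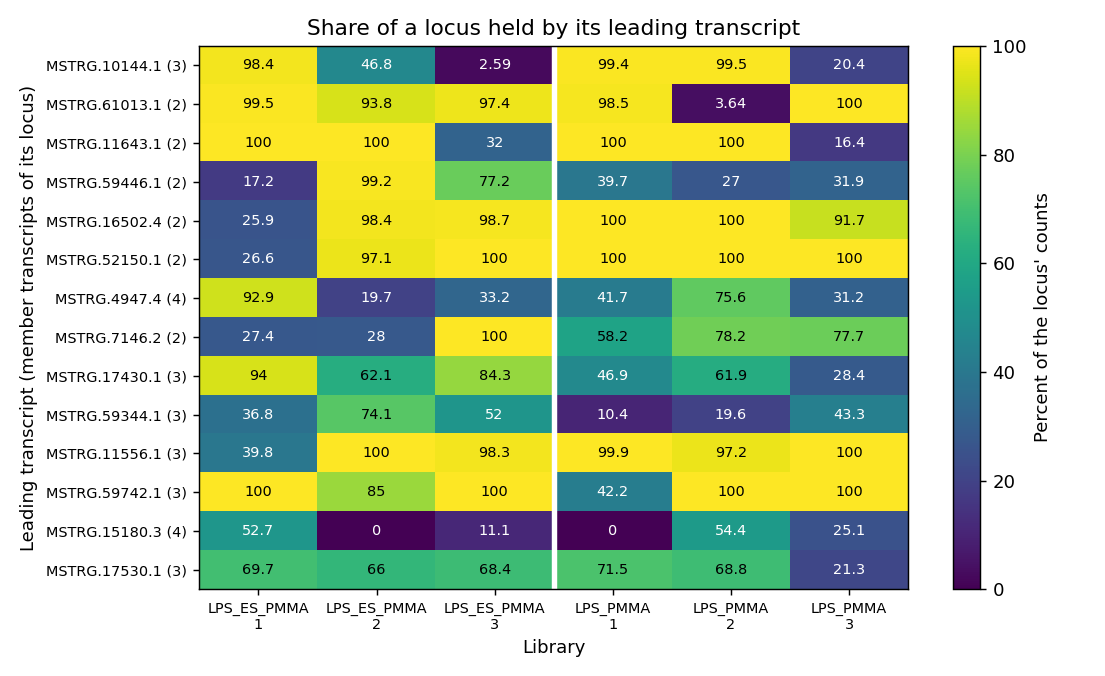
Percent of a locus' counts held by its leading transcript in each library, for the 14 loci in which this share differed by over 50 percentage points between libraries. Columns are libraries, with LPS_ES_PMMA left of the white line and LPS_PMMA right of it, and the number of members of the locus stands in brackets. At the Csf3 locus in the top row the share ran from 2.59% to 99.5%.

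The 5 loci with most members did not pass the test. MSTRG.14688 on chromosome 13 held 10 members within 55332261 to 55333847 as listed, which makes them overlapping variants of 1 short region. Their sum was 1655, 189.9 and 808 CPM in LPS_ES_PMMA, against 1029, 669.8 and 987 CPM in LPS_PMMA. LPS_ES_PMMA 1 and 2 were the highest and the lowest of the 6 libraries, and the log2 fold change was -0.02 (SE 0.62, edgeR adjusted p = 0.993). MSTRG.14688.9 had all of its 312 counts in LPS_ES_PMMA 3. MSTRG.4947, MSTRG.15180 and MSTRG.41150, with 4 members each, and MSTRG.59344, with 3, had log2 fold changes of -1.06 to -0.53 with overlapping groups, and 0 of them passed (edgeR adjusted p from 0.269 to 0.412).

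The 181 members that were not tested had a median length of 307 nt, against 630 nt in those tested. Reads were present in 1 group only for 31 of them, 13 in LPS_ES_PMMA and 18 in LPS_PMMA. They had too few libraries with enough counts for the filter, although 139 of them had at least 10 counts in some library and 12 at least 100, up to 903. In the edgeR fit with no filter, 55 of the 181 had an unadjusted p under 0.05 and 0 an adjusted p under 0.05. The limit that a count of 0 allows, 3 counts, stood for 0.811 to 2.67 CPM of the listed counts of a library and covers counting error only. Chromosome 17 held 42 members, chromosomes 1 and 7 held 39 each, and scaffolds not placed on a chromosome held 13.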

How the data were processed

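RNA of 6 RAW264.7 libraries was sequenced by the submitters with a SMARTER mRNA kit, per the labels' protocols. The deposited table gives counts (whole-number reads per transcript) and FPKM values for each library, per the file headers, and the authors' log2 fold changes, p-values and q-values, which the authors deposited beside them and which were not used here. Per the submitters' processing notes the build was mm10. In each stretch found, assembled ends met GENCODE M21 ends at an offset other than 0, so the positions listed there are not mm10 positions. Assembler, aligner, counting tool and use of strand were not given in the sources used here. No per-sample column was left unassigned.

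Counts were tested with edgeR 4.0.16 in R 4.3.3 (filterByExpr with a minimum count of 10 and a minimum total count of 15, TMM factors, glmQLFit and glmQLFTest) over all 24817 features, once per transcript and once with the counts of a class summed per MSTRG locus. Benjamini-Hochberg adjustment covered all features tested, with a threshold of 0.05. The SE printed beside an edgeR log2 fold change is its size divided by the square root of the F statistic, and is not a separate output of the fit. The alternatives were other scalings, DESeq2 1.42.0, limma 3.58.1 on log2(FPKM + 0.1), robust edgeR, other filters, a replicate block and leaving out each library. Shares were compared by exact permutation (scipy 1.17.1).

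Offsets were votes of assembled transcript ends for annotated ends in GENCODE M21 within 2 bases and 1000 kb. A stretch needed 3 loci and 5 votes. A locus was left out of its own reading, but loci of another number at nearly the same bases were not, and they count among the loci of a stretch.

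The members and gene lists were chosen with earlier results of these data known. Members named are up to 12 per direction past the threshold with groups that do not overlap, the 10 most abundant, the 5 loci with most members, up to 10 loci per direction and up to 5 members per gene list. Those called beyond this rule (5 transcripts and the remaining loci) were named after their values were seen, as were MSTRG.59446, MSTRG.17430 and MSTRG.17530 as loci, MSTRG.17530.2 and MSTRG.14688.9.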

Additional observations from a re-analysis of the deposited data

How the results depend on the processing

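The counts of calls depended on the settings, and the cause was not tested. Transcripts higher in LPS_ES_PMMA numbered 3 with no filter, 4 with a mean FPKM of at least 1 and 1 with the replicate block, against 11, and transcripts lower numbered 5 by column totals, 9 by implied totals, with no filter and with the FPKM filter, 30 by DESeq2, 6 by limma and 2 with the block, against 17. Leaving out a library gave 1 to 2 higher and 2 to 5 lower. Loci higher numbered 6 with no filter, 7 with the FPKM filter and 2 with the block, against 14, and loci lower numbered 5 by column totals, 9 by implied totals, 31 by DESeq2, 7 by limma and 8 with the block, against 19. Leaving out a library gave 2 to 5 loci higher and 2 to 11 lower. Same-numbered libraries of the 2 groups did not deviate together (r of -0.01, -0.01 and -0.08 across features), and r ran from -0.07 to 0.09 between differently numbered ones. With 3 libraries per group these values cannot show whether same-numbered libraries were handled together.

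The share of reads held by the members turned from 1.126 to -0.613 percentage points by implied totals and to -3.882 by TMM-scaled totals, an alternative added after seeing the data, and ran from 0.506 to 1.634 without 1 library. Without the locus MSTRG.17528 the difference ran from 0.934 to 2.046 and was -0.681 by TMM-scaled totals.

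Log2 fold changes that did not pass turned positive in 32 cases. By column totals these were MSTRG.11555.3 (0.82), MSTRG.17530.1 (0.058), MSTRG.55662.5 (0.47), MSTRG.985.2 (0.42), MSTRG.53159.2 (0.64) and the loci MSTRG.14688 (0.66), MSTRG.4947 (0.35), MSTRG.41150 (0.16) and MSTRG.59344 (0.19). By implied totals they were MSTRG.11555.3 (0.36), MSTRG.55662.5 (0.060), MSTRG.53159.2 (0.29) and MSTRG.14688 (0.49). By limma they were MSTRG.11555.3 (0.47), MSTRG.55662.5 (0.063), MSTRG.985.2 (0.017), MSTRG.53159.2 (0.35), MSTRG.10144.2 (0.51) and MSTRG.4947 (0.075). MSTRG.14688 was 0.015 with no filter and 0.0072 with the FPKM filter. Over the fits without 1 library, MSTRG.11555.3 ran from -0.45 to 0.21, MSTRG.53159.2 from -0.37 to 0.076, MSTRG.10144.2 from -4.10 to 7.24 and MSTRG.14688 from -0.84 to 0.48. Of the other values of single transcripts and loci, 676 kept their direction and side of the threshold, 474 kept direction and were no longer past it, and 2 came past it.

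Of the 578 members, 181 did not pass the count filter, and LPS_ES_PMMA 2 had the fewest reads.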
